A study of Mus musculus with 22 samples.

Results

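Amino acid and peptide transporters of the solute carrier families Slc1, Slc3, Slc6, Slc7, Slc15, Slc36, Slc38 and Slc43 were examined in mouse first mandibular molars. All genes of the deposited normalised table whose symbol named a numbered member of these families were taken, which gave 62 genes among 28711 features. Of these, 51 had enough counts to be tested, and the other 11, among them Slc1a7, Slc6a5, Slc6a11, Slc6a12, Slc6a16, Slc6a18, Slc7a13, Slc7a14, Slc7a15 and Slc15a5, did not exceed 13 counts in any library. The molars came from Tgfbr2-G357W/+ mice (Het), which carry a missense mutation in a copy of the type II TGF-beta receptor gene as a model of Loeys-Dietz syndrome, and from Tgfbr2-+/+ littermates (WT). Bulk RNA sequencing was performed on 5 P11 Het, 5 P11 WT, 6 P5 Het and 6 P5 WT libraries, where P11 and P5 are postnatal days 11 and 5. These 22 libraries stem from 5 Het and 8 WT mice by the series' own text, fewer mice than libraries in each genotype. If that count holds for all libraries, some of them share an animal, and no label ties libraries to animals. Sample sizes here count libraries, and p-values, taken from the spread between libraries, are then too small.

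Free amino acids and small peptides cross cell membranes only through carriers, and the families above hold most of the plasma membrane and lysosomal ones. Slc1 carries glutamate and neutral amino acids, Slc6 takes up amino acids and related small molecules with sodium and chloride, and Slc7 light chains reach the membrane bound to an Slc3 heavy chain. Slc15 takes up di- and tripeptides with protons, Slc36 includes proton-coupled carriers of small amino acids, Slc38 moves glutamine and other neutral amino acids with sodium, and Slc43 includes carriers of large neutral amino acids. In a molar at these ages, ameloblasts pass from secreting enamel matrix proteins to the maturation stage, in which the matrix is cleaved by proteases and removed while the enamel mineralises. Some Slc6 members carry other molecules, namely the monoamine transporters Slc6a2, Slc6a3 and Slc6a4, the taurine transporter Slc6a6 and the creatine transporter Slc6a8.

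Libraries held between 32904047 and 45343814 counts. The molar label was borne out by its markers, since all 6 secretory ameloblast, 8 maturation ameloblast and 6 odontoblast markers were detected in every library. The summed level of the maturation ameloblast markers was 59300 to 83500 CPM (counts relative to library size, scaled for composition) at P11 and 823 to 2470 CPM at P5, and that of the secretory ameloblast markers was 17900 to 45100 CPM at P11 and 123000 to 170000 CPM at P5. P11 Het 2, P11 WT 4, P11 WT 5, P5 Het 4 and P5 Het 5 had raised oral mucosa or muscle markers, and comparisons were repeated without these 5 libraries. P5 Het 4 stood out little, with 48.2 CPM of oral keratinocyte markers against 23.1 to 40.4 CPM in the other P5 libraries. P11 Het 5 was not among the 5, although it had 219 CPM of these markers, against 98.5 to 154 CPM in the remaining P11 libraries. The age labels of P5 Het 6 conflict, with P5 in the title and library name and P11 in the tissue and treatment fields. It was kept as P5, and its maturation ameloblast sum lay within the P5 range. Library names carry a number before a hyphen (the prefix) whose meaning is not given, and which is 1 or 2 at P11 and 3, 4 or 5 at P5, so age and prefix cannot be told apart. Prefix 5 holds P5 Het 5 and P5 Het 6 and no WT library, so prefix and genotype are partly confounded at P5. The batch label was the same for every library.

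Levels were compared between genes per kilobase of exon (RPKM). At P11 the peptide transporter Slc15a1 stood first, at 58.5 ± 16.8 RPKM in P11 Het and 58.2 ± 9.95 RPKM in P11 WT molars (SD, n = 5 each). Slc3a2, the heavy chain of the CD98 heterodimers, came next at 37.1 ± 3.77 RPKM in P11 Het and 34 ± 3.26 RPKM in P11 WT, below every Slc15a1 value of its group. The Slc3a2 partner Slc7a8, the taurine transporter Slc6a6, the glial-type glutamate transporter Slc1a3 and the Slc3a2 partner Slc7a6 followed with means between 20.1 and 24.3 RPKM in P11 Het and between 21.1 and 23.3 RPKM in P11 WT, and neighbours in this order did not differ beyond their spread. At P5 the order was led by Slc3a2, at 27.5 ± 3.54 RPKM in P5 Het and 29.8 ± 3.41 RPKM in P5 WT (SD, n = 6 each). Slc7a6 and Slc38a10 followed at 16.1 and 15.9 RPKM in P5 Het and at 17.3 and 16.4 RPKM in P5 WT, within their spread of each other. The number of members above 10 RPKM was 11 in P11 Het, 11 in P11 WT, 7 in P5 Het and 7 in P5 WT.

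**Figure D1:**
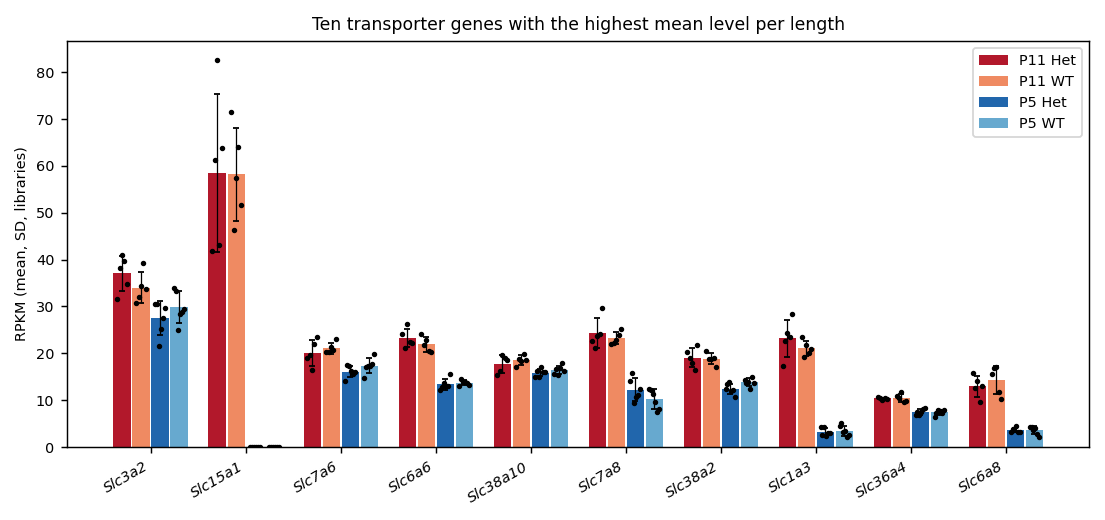
Mean RPKM with SD (bars) and single libraries (points) of the 10 members with the highest mean over all libraries, in P11 Het, P11 WT, P5 Het and P5 WT molars. Slc15a1 reached 58.5 RPKM in P11 Het and 58.2 RPKM in P11 WT and is not visible on this scale at P5, while Slc3a2 was high in all 4 groups.

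The first question was how these genes differ between the ages. Of the 51 tested members, 23 rose and 8 fell at P11 relative to P5 in Het molars, and 26 rose and 10 fell in WT molars (edgeR quasi-likelihood test; genes at a Benjamini-Hochberg adjusted p under 0.05 are called). Among the 21510 genes in the test, 24.4% were called higher and 23.4% lower in Het, and 24.8% were called higher and 24.7% lower in WT. The shares of members were 45.1% higher and 15.7% lower in Het, and 51% higher and 19.6% lower in WT. The members' median log2 fold change was 0.30 in Het and 0.40 in WT, against -0.01 over all genes in both. In both genotypes 21 members rose and 8 fell, and no member was called in opposite directions. Libraries of the ages did not overlap for 18 members higher and 6 lower at P11 in Het (15.9% and 14.4% of all genes) and for 22 higher and 6 lower in WT (16.6% and 15.5%). Without the 5 libraries with raised mucosa or muscle markers, 19 members were called higher and 7 lower in Het, and 24 higher and 9 lower in WT. In bulk tissue a change in the number of cells of a type and a change in RNA per cell cannot be told apart.

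Markers of other cell types also moved with age. All 7 osteoclast markers were called higher at P11 in both genotypes, and their summed level was 249 to 375 CPM in P11 Het and 305 to 409 CPM in P11 WT, against 34.8 to 73.2 CPM in P5 Het and 43.8 to 68.1 CPM in P5 WT. All 7 erythroid markers were called higher in both genotypes, at 177 to 319 CPM in P11 Het and 203 to 417 CPM in P11 WT, against 70.3 to 95.2 CPM in P5 Het and 53.8 to 98.7 CPM in P5 WT. All 9 oral keratinocyte markers were called higher in both, at 100 to 928 CPM in P11 Het and 98.5 to 1330 CPM in P11 WT, against 28.4 to 48.2 CPM in P5 Het and 23.1 to 38.2 CPM in P5 WT. None of the markers of these 3 lists was at 0 in any P11 library. Osteoblast sums were also higher at P11 without overlap, with medians of 1320 CPM in P11 Het, 1250 in P11 WT, 736 in P5 Het and 765 in P5 WT. So were nerve and Schwann sums (46.5, 47.1, 26.4 and 24.65 CPM), endothelial sums (176, 172, 135.5 and 132 CPM) and cartilage sums. Of 6 nerve and Schwann markers, 4 were called higher and 1 lower in each genotype, and 1 endothelial marker was called lower in Het. Odontoblast markers went both ways, with 2 of 6 called higher and 3 lower in each genotype. Their sums spread widely at P5, over 12300 to 36500 CPM in P5 Het and 12200 to 34300 CPM in P5 WT. Of 6 myeloid markers, 2 were called higher and 1 lower in Het, and 2 higher and 2 lower in WT. The part of these lists in the members' age differences was not tested.

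**Figure D2:**
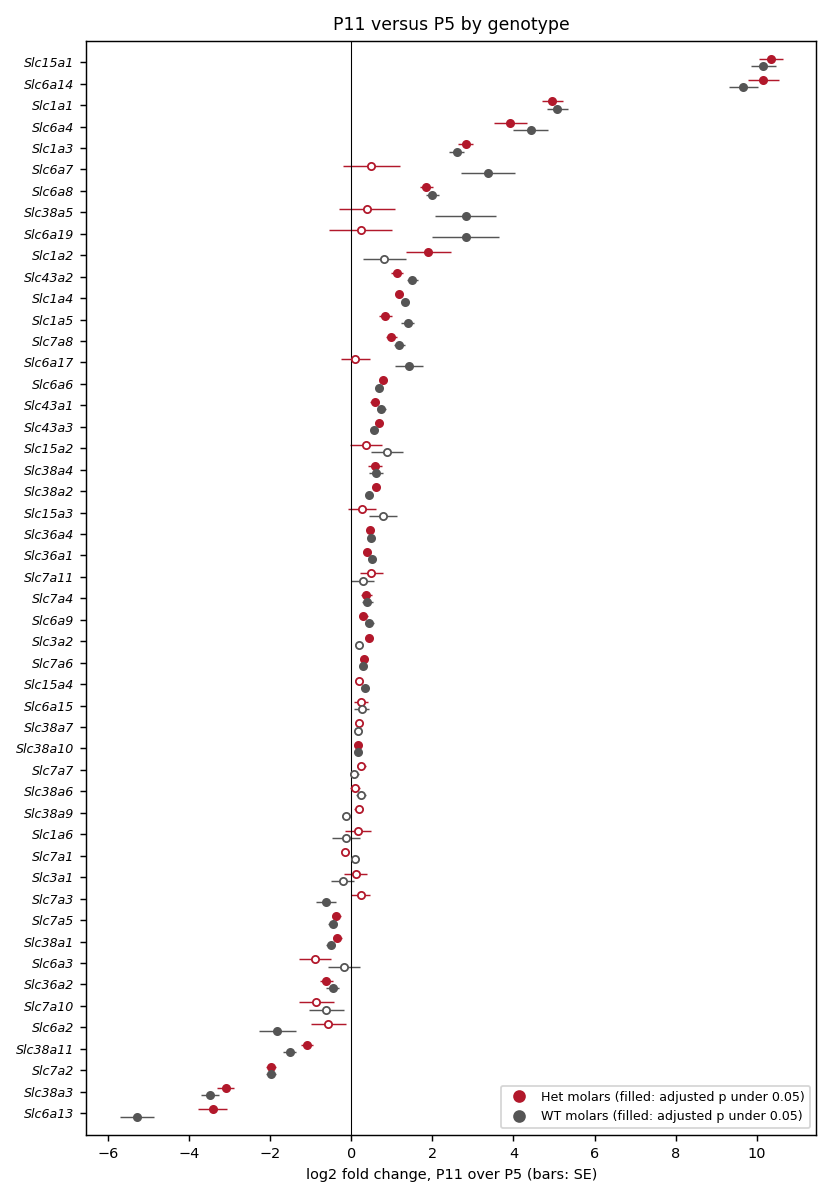
Log2 fold change of P11 over P5 with SE for the tested members, in Het (red) and WT (grey) molars. Filled points passed an adjusted p of 0.05, and Slc7a12, which had no count in P11 WT, is left out. Slc15a1 and Slc6a14 lie near 10, and most other called members lie right of 0.

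Summed over all 62 members, the level was 1940 ± 131 CPM in P11 Het and 1940 ± 70.5 CPM in P11 WT (SD, n = 5 each), against 1120 ± 34 CPM in P5 Het and 1150 ± 36.9 CPM in P5 WT (SD, n = 6 each). The ranges of the ages did not overlap. Slc15a1 made up 14.6% ± 3.35 of the sum in P11 Het and 14.7% ± 2.01 in P11 WT. Without it the sum was 1650 ± 67.2 CPM in P11 Het and 1650 ± 29.1 CPM in P11 WT, still above every P5 library.

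The proton-coupled peptide transporter Slc15a1 (PepT1; GRCm38 chr14:121459621-121505252, minus strand), known from the absorption of di- and tripeptides in the small intestine, showed the largest difference. It had 204, 300, 404, 210 and 312 CPM in P11 Het molars, against 0.0771 to 0.324 CPM (median 0.234) in P5 Het molars. In WT molars it had 349, 226, 281, 313 and 253 CPM at P11, against 0 to 0.445 CPM (median 0.223) at P5. All P11 libraries thus lay above 200 CPM and all P5 libraries below 1 CPM, and P5 Het 6, the library with conflicting age labels, had 0.0771 CPM. The log2 fold change was 10.35 ± 0.30 in Het (SE; adjusted p = 1.09e-17) and 10.16 ± 0.30 in WT (adjusted p = 9.76e-18), from 61663 and 47 counts in P11 Het and P5 Het and from 56852 and 54 counts in P11 WT and P5 WT. The 5 P11 Het and 5 P11 WT libraries overlapped fully.

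The other peptide transporters did not share this difference in size. Slc15a2, the high-affinity peptide transporter known from kidney, averaged 5.58 CPM in P11 Het and 4.32 CPM in P5 Het, and 7.56 CPM in P11 WT and 4.09 CPM in P5 WT, and was not called (adjusted p = 0.474 in Het and 0.0719 in WT), although it was called in WT without P5 WT 5, P11 WT 2 or P11 Het 3. Slc15a4, a lysosomal carrier of histidine and peptides, rose in WT (log2 fold change 0.33 ± 0.09, SE; adjusted p = 0.00477) and was not called in Het (0.19 ± 0.09, adjusted p = 0.0895), except without P11 Het 5. Slc15a3, its relative, was not called, but was called in WT by DESeq2, without the 5 libraries, and without P5 WT 2, P5 WT 4, P11 WT 4, P11 Het 2 or P11 Het 4. Of its 5491 exon bases, 1541 overlap Tmem132a on the other strand, whose reads cannot be told apart in unstranded libraries.

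The broad neutral and cationic amino acid transporter Slc6a14 (ATB0,+; chrX:21714896-21742355, plus strand) followed Slc15a1. It had 51.1, 27.6, 49.3, 50.7 and 24.3 CPM in P11 Het, against 0 to 0.119 CPM (median 0.0129) in P5 Het. In WT molars it had 44.9, 57, 63.1, 55.8 and 68.1 CPM at P11, against 0 to 0.135 CPM (median 0.0647) at P5. At P5 it was thus near the limit of detection, with 7 counts over the 6 P5 Het and 15 counts over the 6 P5 WT libraries, while each P11 library held 1047 counts or more. The log2 fold change was 10.16 ± 0.39 in Het (SE; adjusted p = 8.48e-16) and 9.67 ± 0.35 in WT (adjusted p = 3.71e-16). Leaving out P5 Het 3, which held 4 of the 7 counts, raised the Het value to 11.02.

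Among the glutamate transporters of the Slc1 family, Slc1a1 (EAAC1, also a cysteine carrier; chr19:28835049-28913960, plus strand) had 44.2, 23.2, 38.2, 32 and 16.3 CPM in P11 Het, against 0.724 to 1.34 CPM (median 0.953) in P5 Het. In WT it had 29, 33, 42.9, 20.3 and 33.5 CPM at P11, against 0.647 to 1.49 CPM (median 0.867) at P5. The ages did not overlap, and the log2 fold change was 4.96 ± 0.26 in Het (SE; adjusted p = 1.96e-13) and 5.08 ± 0.26 in WT (adjusted p = 1.12e-13). An antisense transcript, 4430402I18Rik, covers 2631 of its 8257 exon bases and averaged 0.505 CPM in P11 Het, 0.671 CPM in P11 WT, 0.41 CPM in P5 Het and 0.377 CPM in P5 WT.

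Slc1a3 (GLAST), the glutamate and aspartate transporter known from astrocytes, had 147, 194, 208, 201 and 242 CPM in P11 Het, against 20.7 to 36.8 CPM (median 26.3) in P5 Het. In WT it had 201, 164, 185, 172 and 178 CPM at P11, against 19.2 to 42.9 CPM (median 28.3) at P5. Its log2 fold change was 2.82 ± 0.19 in Het (SE; adjusted p = 8.36e-12) and 2.60 ± 0.18 in WT (adjusted p = 2.79e-11). The neutral amino acid exchangers Slc1a4 (ASCT1) and Slc1a5 (ASCT2) rose as well, by log2 1.19 and 0.84 in Het and by 1.33 and 1.39 in WT, so that 4 of the 6 tested Slc1 members rose in both genotypes. The glutamate transporter Slc1a2 was called in Het (1.90 ± 0.55, SE; adjusted p = 0.00588) and not in WT (0.82 ± 0.52, adjusted p = 0.197); its Het call was lost without the 5 libraries, and it was called in WT without P5 WT 6 or with the replicate block.

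**Figure D3:**
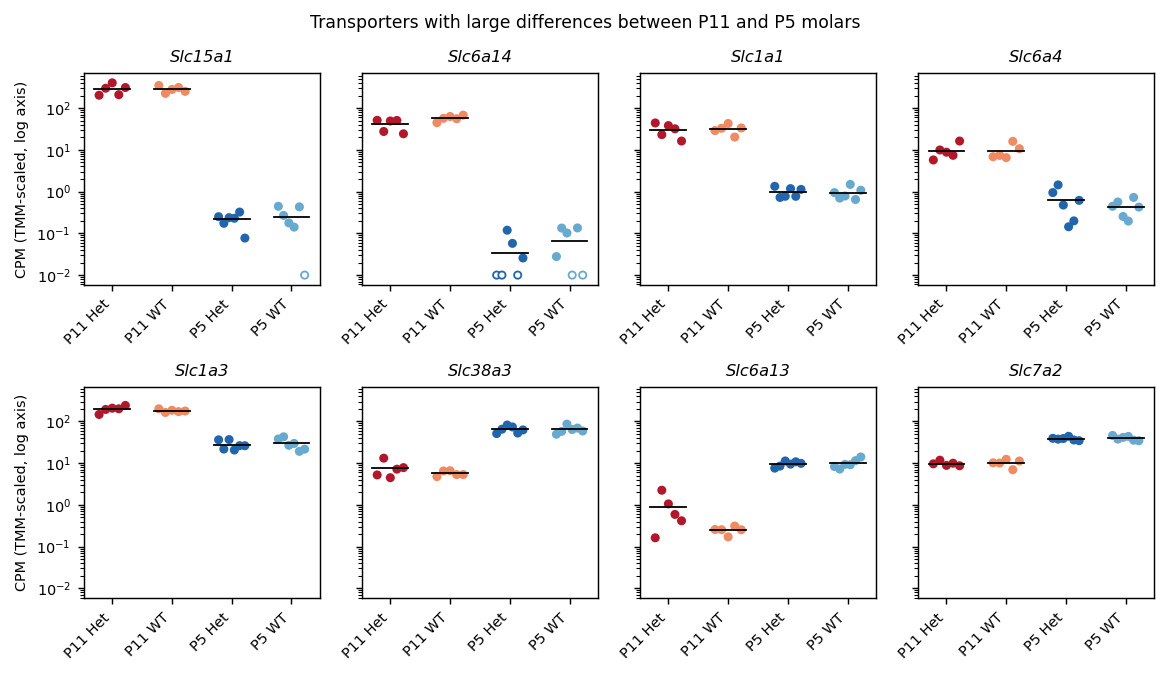
TMM-scaled CPM of 8 members in each library on a log axis, with group means as lines, for P11 Het, P11 WT, P5 Het and P5 WT. Open points at 0.01 are libraries with no count. Slc15a1, Slc6a14, Slc1a1, Slc6a4 and Slc1a3 are high at P11, and Slc38a3, Slc6a13 and Slc7a2 are high at P5.

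The stretches before the annotated starts of the members with the largest rise are shown because these genes moved together; they are RefSeq promoters of build GRCm38.p6, 5′ to 3′, without bases that lie in the gene's exons in GENCODE M21. Capitals mark motif matches. The Slc15a1 stretch is chr14:121505255-121505504 (minus strand), that of Slc6a14 is chrX:21714650-21714895 (plus strand) and that of Slc1a1 is chr19:28834885-28835048 (plus strand).
Slc15a1: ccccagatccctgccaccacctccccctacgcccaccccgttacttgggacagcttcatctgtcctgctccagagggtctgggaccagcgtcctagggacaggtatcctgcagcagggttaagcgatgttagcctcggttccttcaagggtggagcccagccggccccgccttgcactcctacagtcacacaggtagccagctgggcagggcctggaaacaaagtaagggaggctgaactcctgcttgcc
Slc6a14: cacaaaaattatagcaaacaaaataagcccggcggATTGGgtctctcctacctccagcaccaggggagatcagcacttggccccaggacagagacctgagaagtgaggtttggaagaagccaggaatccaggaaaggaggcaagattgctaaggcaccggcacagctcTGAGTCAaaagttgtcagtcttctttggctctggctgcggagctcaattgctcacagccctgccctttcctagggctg
Slc1a1: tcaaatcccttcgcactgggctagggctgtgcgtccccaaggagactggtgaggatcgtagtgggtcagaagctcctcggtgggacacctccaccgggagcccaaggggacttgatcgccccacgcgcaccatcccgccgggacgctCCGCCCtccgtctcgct

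Motifs were searched on both strands in 32851 RefSeq promoters, cut to 250 bases before the start, of which 63 belong to 43 of the 62 members. The GC box (GGGCGG) was present in 50.8% of the members' promoters and in 32.7% of all promoters. Slc1a1 held it on the minus strand, 103 to 98 bases before its RefSeq start. All positions here are counted from RefSeq starts. The stretches shown for Slc1a1 (164 bases) and Slc6a14 (246 bases) end before those starts, where the GENCODE exons begin. The CCAAT box (CCAAT) was present in 23.8% of the members' and in 33.8% of all promoters. In Slc6a14 it lay on the minus strand, 215 to 211 bases before the start. An AP-1 site (TGANTCA) was present in 14.3% of the members' and in 6.75% of all promoters, and in Slc6a14 lay 82 to 76 bases before the start. The TATA box (TATAAA) was present in 9.52% of the members' and in 12.4% of all promoters. The cyclic AMP response element (TGACGTCA) was present in 1.59% of the members' and in 1.55% of all promoters. The C/EBP-ATF amino acid response element (TGATGNAAT) was present in 0% of the members' and in 0.816% of all promoters. Of the 21 members that rose in both genotypes, 16 had a promoter in this set. Together they had 22 promoters, with more than 1 for some genes. Of these, 15 held a GC box, 10 a CCAAT box, 2 an AP-1 site and 3 a TATA box. Of the 8 members that fell in both genotypes, 2 had a promoter in this set. Of their 4 promoters, 2 held a GC box and 1 a CCAAT box. Slc15a1 held no match of these 6 motifs in its window. These matches are descriptions of letters, and binding was not measured.

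Other Slc6 members moved in both directions. The serotonin transporter Slc6a4 had 5.74, 9.95, 8.8, 7.41 and 16.3 CPM in P11 Het, against 0.144 to 1.45 CPM (median 0.547) in P5 Het, and 6.86, 7.38, 6.52, 16 and 10.7 CPM in P11 WT, against 0.197 to 0.727 CPM (median 0.436) in P5 WT. Its log2 fold change was 3.92 ± 0.41 in Het (SE; adjusted p = 2.68e-08) and 4.43 ± 0.43 in WT (adjusted p = 6.06e-09). The creatine transporter Slc6a8 averaged 67.8 ± 11.7 CPM in P11 Het and 18.9 ± 2.69 CPM in P5 Het, and 74.4 ± 16.1 CPM in P11 WT and 18.6 ± 4.43 CPM in P5 WT, with log2 fold changes of 1.85 in Het and 2.00 in WT. The taurine transporter Slc6a6, among the most abundant members at both ages, rose less, by log2 0.79 in Het and 0.68 in WT.

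The GABA and taurine transporter Slc6a13 (GAT2; chr6:121300227-121337733, plus strand) went the other way. It had 0.163, 2.25, 1.06, 0.592 and 0.417 CPM in P11 Het, against 7.61 to 11.3 CPM (median 9.7) in P5 Het. In WT it had 0.258, 0.255, 0.172, 0.312 and 0.254 CPM at P11, against 7.23 to 14.1 CPM (median 9.28) at P5. All P11 libraries lay below all P5 libraries, and the log2 fold change was -3.41 ± 0.36 in Het (SE; adjusted p = 3.07e-08) and -5.29 ± 0.42 in WT (adjusted p = 2.45e-10). P11 Het 2, a library with raised oral mucosa and muscle markers, was the highest at P11, and P11 Het 3 came next. The Het value was -4.10 without P11 Het 2 and -4.59 without P11 Het 2 and 3, and leaving out the highest P11 values deepens the fall by construction. The noradrenaline transporter Slc6a2 fell in WT (-1.82 ± 0.45, SE; adjusted p = 0.00156) and was not called in Het (-0.56 ± 0.43, adjusted p = 0.3). At P5, Slc6a2 averaged 11 ± 4.12 CPM at prefix 3, 6.14 ± 4.2 CPM at prefix 4 and 3.29 ± 0.843 CPM at prefix 5 (SD). Prefix 5 holds Het libraries alone, and the part of the prefix in this result was not tested.

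The neutral amino acid transporter Slc6a19 (B0AT1) was called higher at P11 in WT (2.82 ± 0.82, SE; adjusted p = 0.00611) but rested on the libraries with raised mucosa markers. It had 8.64 CPM in P11 WT 4, 2.13 CPM in P11 WT 5 and 3.51 CPM in P11 Het 2, and 0.0492 to 0.799 CPM in the other P11 libraries. The oral keratinocyte markers, all 9 of which were detected in every P11 library, summed to 928, 1330 and 559 CPM in P11 Het 2, P11 WT 4 and P11 WT 5, and their part in the result was not tested. Without P11 WT 4, or without the 5 libraries, the call was lost.

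Within the Slc38 family, the glutamine, histidine and asparagine transporter Slc38a3 (SNAT3; chr9:107650634-107669530, minus strand) fell. It had 5.23, 13.2, 4.49, 7.19 and 7.83 CPM in P11 Het, against 51.2 to 82.1 CPM (median 63.9) in P5 Het, and 4.77, 6.52, 6.62, 5.33 and 5.35 CPM in P11 WT, against 49.4 to 86.3 CPM (median 61.5) in P5 WT. The ages did not overlap, and the log2 fold change was -3.09 ± 0.21 in Het (SE; adjusted p = 2.34e-11) and -3.49 ± 0.22 in WT (adjusted p = 3.65e-12). Slc38a2 (SNAT2), a system A carrier of small neutral amino acids, rose to 169 ± 18.4 CPM in P11 Het, against 110 ± 9.87 CPM in P5 Het, and to 167 ± 10.4 CPM in P11 WT, against 122 ± 7.55 CPM in P5 WT. Its relative Slc38a1 (SNAT1) fell by 0.34 in Het and by 0.50 in WT on the log2 scale, and its Het call was lost without P11 Het 2 and 3 together. Slc38a11 fell by 1.09 in Het and by 1.51 in WT on the same scale, while Slc38a10, the most abundant Slc38 member at P5 per length, changed by 0.16 in Het (adjusted p = 0.0442) and 0.17 in WT (adjusted p = 0.0318). Leaving out P11 Het 3, 4 or 5 or P5 Het 1, 3 or 5, or P11 WT 2, 3 or 5, ended the Slc38a10 call in Het, and leaving out P11 WT 2 or 4, or the 5 libraries, ended it in WT. It was also lost in both genotypes with no filter on low counts, and in Het without P11 Het 2 and 3 together.

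The lysosomal amino acid sensor Slc38a9, which signals arginine to mTORC1, was not called between the ages in either genotype (0.18 ± 0.11 in Het and -0.12 ± 0.11 in WT, SE; adjusted p = 0.216 in Het and 0.419 in WT), except in Het without P5 Het 1. Within the Slc36 family, Slc36a1, a proton-coupled carrier of small amino acids, and Slc36a4 rose by 0.38 and 0.46 in Het and by 0.51 and 0.50 in WT (log2), and Slc36a2 fell by 0.61 in Het and by 0.46 in WT on that scale. The Slc36a2 call in WT was lost without any of P11 WT 1, 2 or 3 or P5 WT 1, 3 or 4.

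Among the Slc7 carriers, the cationic amino acid transporter Slc7a2 (CAT2) averaged 9.79 ± 1.24 CPM in P11 Het and 38.5 ± 3.28 CPM in P5 Het, and 10.2 ± 2.03 CPM in P11 WT and 39.9 ± 4.71 CPM in P5 WT. It fell by 1.97 on the log2 scale in each genotype (SE 0.12; adjusted p = 1.88e-12 in Het and 1.71e-12 in WT), with no overlap between ages. Its close relative Slc7a1 (CAT1), which carries the same class of amino acids, was not called (-0.16 ± 0.08 in Het and 0.09 ± 0.08 in WT, SE; adjusted p = 0.0967 in Het and 0.388 in WT), except in Het without P11 Het 5. Slc7a12 was scarce, with 2 counts over the 5 P11 Het libraries against 81 counts over the 6 P5 Het libraries, a ratio of CPM of 0.0249 (95% interval 0.00297 to 0.0931, counting error only). It had 0 counts over the 5 P11 WT against 51 counts over the 6 P5 WT libraries, at least 15.4-fold lower at a floor of 3 counts over the group, and the edgeR calls were lower in both genotypes (adjusted p = 6.15e-06 in Het and 1.33e-05 in WT).

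The heterodimeric carriers did not move together. The heavy chain Slc3a2 had 112, 135, 144, 140 and 123 CPM in P11 Het, against 76.2 to 108 CPM (median 101) in P5 Het, and 109, 113, 122, 139 and 119 CPM in P11 WT, against 87.7 to 120 CPM (median 103) in P5 WT. It rose in Het (0.43 ± 0.09, SE; adjusted p = 0.000622) and was not called in WT (0.19 ± 0.09, adjusted p = 0.0978), where leaving out P5 WT 1 or P5 WT 2 gave a call (0.26, adjusted p = 0.0314, and 0.25, adjusted p = 0.0371). Its partner Slc7a8 (LAT2), an exchanger of neutral amino acids, rose by log2 0.99 ± 0.13 in Het and 1.19 ± 0.13 in WT (SE). The partner Slc7a5 (LAT1), which imports large neutral amino acids such as leucine, fell by 0.37 in Het (SE 0.11; adjusted p = 0.00864) and by 0.46 in WT (SE 0.11; adjusted p = 0.00146) on the log2 scale. Its Het call was lost without the 5 libraries (adjusted p = 0.0748).

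Slc7a6 (y+LAT2), which exchanges cationic for neutral amino acids, rose by log2 0.32 in Het and 0.28 in WT, and its WT call was lost without the 5 libraries (adjusted p = 0.0574). Slc7a7 (y+LAT1), of the same exchange type, was not called, although leaving out P5 WT 1, P5 WT 5, P5 WT 6 or P5 Het 3, or fitting the replicate block, gave a call in Het (adjusted p between 0.0294 and 0.0474). The cystine and glutamate exchanger Slc7a11 (xCT) was not called (0.50 ± 0.28 in Het and 0.28 ± 0.28 in WT, SE), with 13 to 47.1 CPM in P11 Het, 16.8 to 39.1 CPM in P11 WT, 17 to 30.8 CPM in P5 Het and 13.6 to 40.4 CPM in P5 WT. Without P11 Het 5, the lowest of these, it was called in Het (0.69, adjusted p = 0.0363). The second heavy chain Slc3a1 and the partner Slc7a10 averaged under 1 CPM in every group and were not called, although Slc7a10 was called lower at P11 in Het without P11 Het 1 (-1.29, adjusted p = 0.0237), and the partner Slc7a13 was not tested. On the other strand, Prepl (37.3 to 45.5 CPM over the groups) overlaps 601 of 2271 Slc3a1 exon bases. Lrp3 (2.98 to 6.11 CPM) overlaps 377 of 2111 in Slc7a10, and Oxa1l (77 to 106 CPM) 232 of 3315 in Slc7a7. Reads from such overlaps cannot be told apart in unstranded libraries. The large neutral amino acid carriers Slc43a1 and Slc43a2 rose by log2 0.58 and 1.13 in Het and by 0.74 and 1.51 in WT, and the purine nucleobase transporter Slc43a3 rose by 0.68 in Het and 0.57 in WT.

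The study's main contrast was that of the genotypes. No member was called in P11 Het against P11 WT, where 0.0232% of all genes were higher and 0.00465% lower, nor in P5 Het against P5 WT, where 0.0651% were higher and 0.195% lower. None was called in the mean of both ages (0.0651% of all genes higher, 0.107% lower) or in the interaction, the genotype difference at P11 minus that at P5 (0.0139% higher, 0% lower). The smallest adjusted p of a member was 0.138 at P11, 0.758 at P5, 0.292 for the mean of both ages and 0.34 for the interaction. At an unadjusted p under 0.05 there were 7 members at P11 (9.85% of all genes), 3 at P5 (6.22%), 3 in the mean of both ages (6.85%) and 8 in the interaction (10.3%). DESeq2 called 1 member at P11, Slc6a13, and none in the other 3 comparisons. Members called between ages in a single genotype are therefore not shown to differ between genotypes. In counts simulated with known changes, 59% of 2-fold genotype differences were recovered at P11 and 69% at P5. Differences of this size or smaller can thus be missed.

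**Figure D4:**
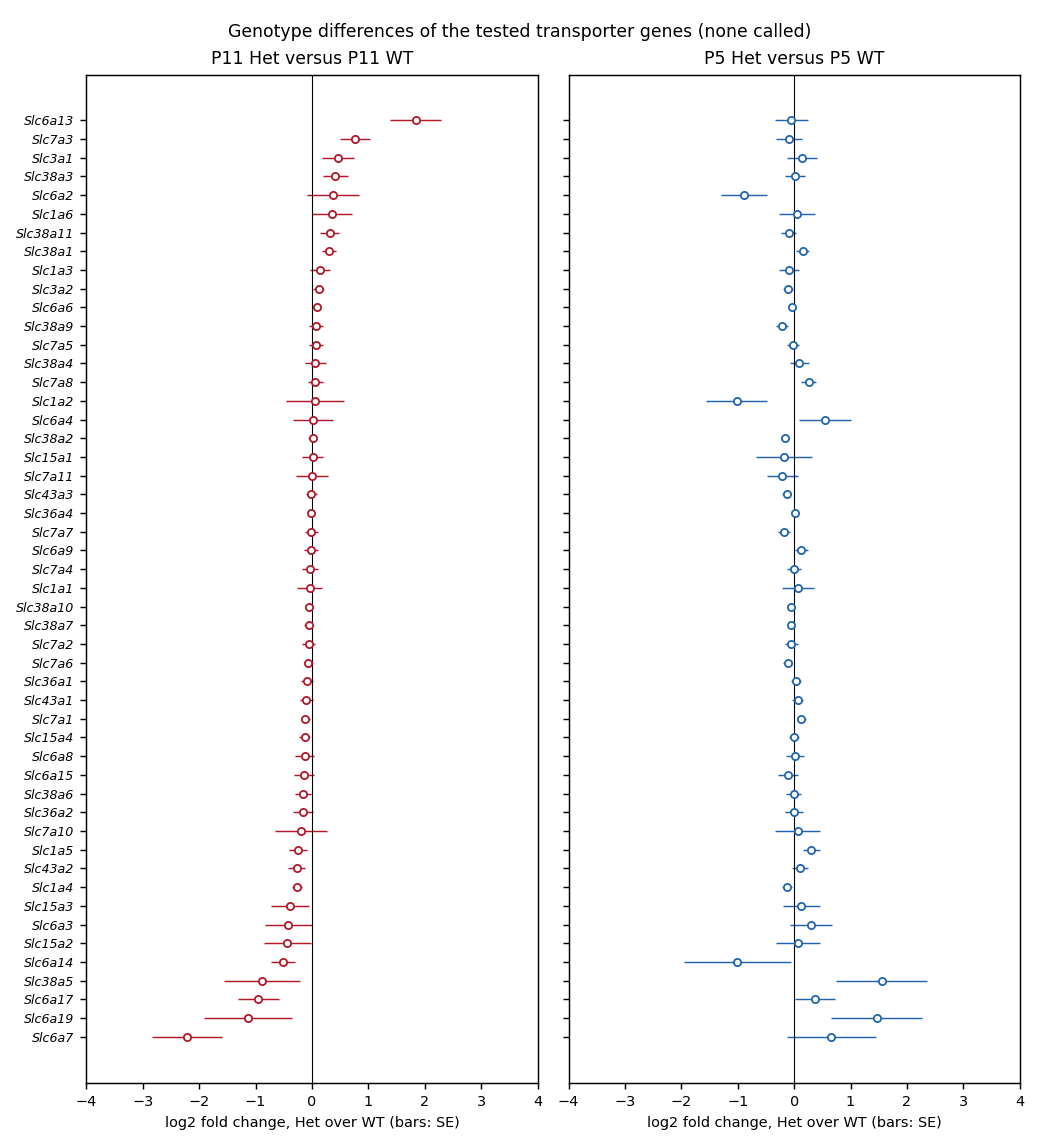
Log2 fold change of Het over WT with SE for the tested members at P11 (left) and P5 (right), in the order of the P11 values. Slc7a12, with 2 counts in P11 Het and 0 in P11 WT, is left out, and no member was called at either age. Slc6a13 lies at 1.84 and Slc6a7 at -2.22 at P11.

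Slc6a13 had the smallest p at P11. With the P11 values given above, 4 of the 5 P11 Het libraries were above every P11 WT library and P11 Het 1 was below them all. The log2 fold change was 1.84 ± 0.45 (SE; adjusted p = 0.138), and DESeq2 gave 1.84 with an adjusted p of 0.0175. Without P11 Het 1 it was called (2.10, adjusted p = 0.0372), and without P11 Het 2 it was 1.14 (adjusted p = 0.443). With the prefix as a block it was 1.77 (adjusted p = 0.0993), and without the 5 libraries 1.27 (adjusted p = 0.588). P11 Het 2 and P11 Het 3, the highest libraries for Slc6a13, also had the highest secretory ameloblast sums at P11, 45100 and 42500 CPM, against 17900 to 33700 CPM in the other P11 libraries. Their odontoblast sums were the lowest at P11, 10800 and 11600 CPM, against 18500 to 29400 CPM in the others. Without both, a setting chosen after seeing the data, the Slc6a13 difference was 0.63 (adjusted p = 1). Leaving out the highest Slc6a13 libraries of P11 Het lowers this difference by construction. The part of the ameloblast and odontoblast sums in it was not tested. At P5 the genotypes overlapped fully.

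The brain proline transporter Slc6a7 was singled out after its values were seen, as the only member whose P11 Het and P11 WT libraries did not overlap (0.614% of all genes were higher and 0.748% lower without overlap). At P5 no member was without overlap (0.344% of all genes higher and 0.507% lower). Slc6a7 had 6, 2, 6, 9 and 4 counts in P11 Het, against 30, 31, 18, 21 and 19 counts in P11 WT. The log2 fold change was -2.22 ± 0.62 (SE; adjusted p = 0.239), and -2.21 with the prefix as a block (adjusted p = 0.0829). Over the ages it was called higher at P11 in WT (3.37, adjusted p = 0.000174) and not in Het (0.50, adjusted p = 0.599). The interaction was -2.88 ± 1.01 (SE, adjusted p = 0.415). Slc6a7 passed the filter on low counts only through the P11 WT libraries, the group where it was high. Its lack of overlap, its fold changes that involve P11 WT and the interaction thus carry that selection. At P5, Slc38a2 had the smallest p, with 110 ± 9.87 CPM in P5 Het and 122 ± 7.55 CPM in P5 WT (-0.16 ± 0.07, SE; adjusted p = 0.758). For Slc15a1 the log2 fold change of Het over WT had an SE of 0.19 at P11, where the groups averaged 286 CPM in P11 Het and 284 CPM in P11 WT.

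Libraries of the same age also differed by prefix. At P11, prefix 2 against prefix 1 gave 1 member higher and 1 lower with genotype held (2.26% of all genes higher and 3.37% lower). Slc7a11 averaged 20.6 ± 6.87 CPM at prefix 2 (SD, n = 4) and 36.4 ± 9.57 CPM at prefix 1 (SD, n = 6), a log2 fold change of -0.82 ± 0.23 (SE; edgeR adjusted p = 0.0342). Slc43a2 averaged 60 ± 9.06 CPM at prefix 2 and 41.3 ± 4.74 CPM at prefix 1 (0.54 ± 0.09, SE, adjusted p = 0.00119). It ran from 49.8 to 71.8 CPM at prefix 2 and from 35.8 to 48.4 CPM at prefix 1. At P5, prefix 4 against prefix 3 gave 0 members higher and 2 lower (1.72% of all genes higher and 1.33% lower). Slc7a8 averaged 47.2 ± 7.44 CPM at prefix 4 and 68.4 ± 8.61 CPM at prefix 3 (-0.50 ± 0.09, SE; adjusted p = 0.0062), and Slc3a2 averaged 93.1 ± 10.6 CPM at prefix 4 and 113 ± 6.61 CPM at prefix 3 (-0.32 ± 0.08, SE; adjusted p = 0.0279). The Slc7a11 call was lost without any of P11 Het 1, 3 or 5 or P11 WT 1, 3 or 4 (adjusted p between 0.0599 and 0.126). The Slc3a2 call was lost without any of P5 Het 1, 2 or 3 or P5 WT 1 or 2 (adjusted p between 0.058 and 0.093). Without the 5 libraries, which include P11 WT 4 and P11 WT 5 of prefix 2, the adjusted p was 0.168 for Slc43a2, 0.0579 for Slc7a11 and 0.0651 for Slc3a2. With the replicate block it was 0.0808 for Slc43a2, 0.545 for Slc7a11 and 0.412 for Slc7a8.

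**Figure D5:**
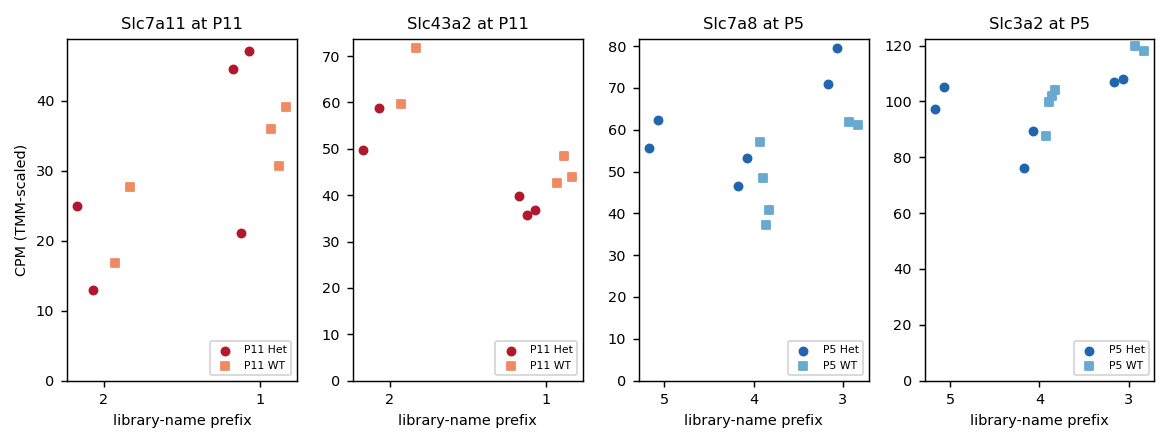
TMM-scaled CPM of the 4 members called between library-name prefixes, by prefix within the age, with circles for Het and squares for WT. Slc7a11 is lower and Slc43a2 higher at prefix 2 than at prefix 1 at P11, and Slc7a8 and Slc3a2 are lower at prefix 4 than at prefix 3 at P5.

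Genes that use, sense or supply amino acids were set beside the transporters, and their counts stand against 24.4% of all genes called higher and 23.4% lower in Het, 24.8% higher and 24.7% lower in WT, and a median of -0.01 in each. Of 11 peptidases that yield peptides and amino acids, 7 rose and 0 fell at P11 in Het, and 7 rose and 1 fell in WT, with a median log2 fold change of 0.39 in each genotype. They included the membrane aminopeptidase Anpep (1.26 in Het and 1.13 in WT), the dipeptidyl peptidase Dpp4 (1.54 and 2.10, the WT value 1.28 without the 5 libraries) and the lysosomal proteases Ctsb (0.98 and 0.87) and Ctsl (0.66 and 0.52). Of 15 genes of glutathione synthesis and cystine use, 5 rose and 2 fell in Het and 6 rose and 2 fell in WT (median 0.26 and 0.31). The gamma-glutamyl transferase Ggt1, which opens extracellular glutathione, rose by 4.39 ± 0.13 in Het (SE; adjusted p = 8e-18) and 4.62 ± 0.13 in WT (adjusted p = 2.9e-18), its relative Ggt5 fell by 1.06 in Het and by 1.37 in WT, and the glutathione synthetase Gss rose by 1.15 and 0.98. The other gene of this list that fell was Gclm of glutathione synthesis, named after its values were seen, with -0.95 in Het and -1.17 in WT.

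Of 12 genes of serine, glycine and one-carbon synthesis, 8 rose and 2 fell in each genotype (median 0.51 in Het and 0.44 in WT), among them the folate dehydrogenases Aldh1l1 (2.94 in Het and 2.56 in WT) and Aldh1l2 (1.14 and 1.20) and the serine synthesis enzyme Psat1 (0.79 and 0.69). The other enzymes of serine synthesis, named after their values were seen, were the 2 that fell, Phgdh by 0.46 in Het and by 0.62 in WT and Psph by 0.31 in Het and by 0.34 in WT. Of 20 genes of proline, arginine and glutamine metabolism, 13 rose and 5 fell in Het and 11 rose and 4 fell in WT (median 0.43 and 0.34). The glutaminase Gls2 rose by 2.80 in Het and 2.99 in WT, the glutamine synthetase Glul rose by 1.58 and 1.85, and the argininosuccinate synthase Ass1 fell by 1.81 in Het and by 2.27 in WT. The arginase Arg1 was called in both (3.39 in Het and 4.46 in WT), but was 1.63 in Het without P11 Het 2 (adjusted p = 0.161) and 1.22 without P11 Het 2 and 3 (adjusted p = 0.372), 2.72 in WT without P11 WT 4, and 0.46 in WT without the 5 libraries (adjusted p = 0.366).

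Of 20 genes of the ATF4 response to amino acid shortage, 8 rose and 4 fell in each genotype (median 0.11 in Het and 0.17 in WT), where the shares over all genes were 24.4% and 23.4% in Het and 24.8% and 24.7% in WT. The pseudokinase Trib3 (1.76 and 1.64) and the stress regulators Nupr1 (1.36 and 1.41) and Atf3 (1.13 and 1.03) rose, and the glutathione-degrading Chac1 fell by 1.43 in Het and by 1.95 in WT. Of 20 aminoacyl-tRNA synthetases, 8 rose and 2 fell in Het and 5 rose and 5 fell in WT (median 0.15 and 0.07), the WT counts being near the shares over all genes. Of 25 genes of amino acid sensing by mTORC1, 9 rose and 8 fell in Het and 6 rose and 6 fell in WT (median 0.12 and 0.04), and the arginine sensor Castor1 fell by 1.16 in Het and by 1.45 in WT. Of 11 genes of branched-chain amino acid breakdown, 0 rose and 3 fell in Het and 2 rose and 3 fell in WT (median 0.08 and -0.06). Of 15 tested genes listed as amino acid carriers outside the rule, 5 rose and 3 fell in Het and 7 rose and 5 fell in WT (median 0.12 and 0.02). This list also held the mitochondrial citrate carrier Slc25a1 and Slc7a6os, which is not a carrier, and without them 4 of 13 rose and 3 fell in Het and 5 rose and 5 fell in WT (median -0.08 and 0.01), with the vesicular glutamate transporter Slc17a8 at 3.90 in Het and 4.59 in WT. Between genotypes these lists held 1 call, the branched-chain aminotransferase Bcat1, named after its values were seen, which was lower in Het in the mean of both ages (-0.36 ± 0.05, SE; adjusted p = 0.00356).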

How the data were processed

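Total RNA of first molars was sequenced as unstranded Nextera XT libraries with paired-end reads of 100 bases, per the labels' protocols, which name no molecular identifiers. STAR 2.7.3a, DESeq2, edgeR and limma with build GRCm38 are named, per the submitters' processing notes, whereas a name for the read counter or its gene models was not given in the sources used here. Whole-number read counts were deposited by the authors for 55439 features, of which 18 are not mouse genes, took at most 0.000457% of a library and were left out, and a signal table of composition-scaled CPM for 28711 features, which the counts gave again within a relative difference of 5.11e-15.

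Groups came from the sample titles. Counts were tested with edgeR 4.0.16 (R 4.3.3): TMM factors, filterByExpr (minimum count 10, minimum total 15, 21510 genes kept), and a quasi-likelihood fit with 4 age-by-genotype groups over all 22 libraries (18 residual degrees of freedom), two-sided, with Benjamini-Hochberg adjustment over all genes tested. The prefix comparisons and the prefix block used a fit with the prefix within age as a term (15 residual degrees of freedom). SE is |log2 fold change| / √F. RPKM is the CPM per kilobase of the exon union in GENCODE M21, which holds all 62 members; exons of 14 of them overlap a gene on the other strand. Intervals and floors cover counting error only. The procedure was tested on simulated counts in which 200 of 21510 genes were changed. Of 2-fold genotype changes, 59% were recovered at P11 and 69% at P5. Of 1.5-fold genotype changes, 32% were recovered at P11 and 45.5% at P5. Of changes between the ages in WT, 61.5% were recovered at 2-fold and 41% at 1.5-fold. In the data 24.8% of genes were called higher and 24.7% lower between the ages in WT, far more than were changed in the simulation. The adjustment depends on that number, so these 2 shares do not carry over to the observed age comparison. Replicates of a group differed by more than sampling noise (chi-square per degree of freedom 6.4 to 88.5), so none was taken for a library deposited in duplicate; this does not show that libraries come from separate animals.

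The members and lists were chosen with earlier results of these data known. Members named with values were those called between genotypes, the 12 with the largest change called alike in both age comparisons, the 10 with the highest mean RPKM, the members called between prefixes, the Slc3 heavy chains and their Slc7 partners (Slc7a9 is not among the rows used), and the member with the smallest p in each genotype comparison; up to 4 called genes per list were named. Other members with values are given to complete a family and were chosen after their values were seen. Alternatives were RLE factors, DESeq2 1.42.0, no filter on low counts, a replicate block, the prefix block, leaving out the 5 libraries with raised mucosa or muscle markers, leaving out each library in turn, and, added after seeing the data, leaving out P11 Het 2 and 3.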

Additional observations from a re-analysis of the deposited data

Results flagged for a closer look

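In 99 sets of 1 member in the libraries of 1 group, 3 held a library set apart from the others by a wide gap, and chance sets apart about 1 set in 20. Slc7a7 was 18.9 CPM in P5 Het 3, against 14.4 to 15.9 CPM in the other P5 Het libraries. Slc7a13, which was too scarce to test, was 0.206 CPM in P11 WT 1 and 0 in the other P11 WT libraries. It was 0.216 CPM in P5 WT 5, with 0.0762 CPM the highest of the remaining P5 WT libraries.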

How the results depend on the processing

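Over 123 results of single genes and 29 settings, 3365 of 3448 values kept their direction and their side of the threshold, 71 lost a call, 11 gained one, and 1 reversed: Slc3a1 in P11 against P5 Het molars, not called, was -0.03 without P5 Het 5 and ran from there to 0.22 when other libraries were left out. Of the 31 members called between ages in Het, RLE factors and DESeq2 kept 31 the removal of the 5 libraries with raised mucosa or muscle markers 26, and the removal of P11 Het 2 and 3 27. Of the 36 called in WT, these settings kept 36, 36, 31 and 36. For P11 Het against P11 WT, DESeq2 called 1 member higher.

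For P11 prefix 2 against prefix 1, 2 members were higher with DESeq2, 3 without a filter on low counts and 0 without the 5 libraries, and 3, 3 and 0 were lower; without P11 Het 2 and 3, 2 were higher and 2 lower. For P5 prefix 4 against prefix 3, 1 was higher and 6 were lower without the filter, and 1 was lower without the 5 libraries. The cause was not tested.

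Replicate numbers were not taken as pairs, since not every correlation between libraries of the same number was over 0.1: they ran from -0.13 to 0.11 at P11, where 1 of 5 numbers had its best match in its own number, and from 0.04 to 0.21 at P5, where 4 of 6 did. With the replicate block, 29 of the 31 members called between ages in Het and 36 of the 36 in WT kept their calls. For P11 prefix 2 against prefix 1 the replicate block left 0 higher and 0 lower, and for P5 prefix 4 against prefix 3 it left 1 lower. Numbers 1 to 3 are prefix 1 and numbers 4 and 5 prefix 2 in both P11 groups, and at P5 prefix 3 holds numbers 1 and 2 alone, so the block takes up most of the prefix difference by construction.

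Leaving out each library in turn gave 0 to 1 member higher in P11 Het against P11 WT and 0 in the other genotype counts. In Het, 20 to 25 members were higher and 8 to 9 lower at P11, and in WT 24 to 29 were higher and 8 to 10 lower. For P11 prefix 2 against prefix 1, 1 to 3 were higher and 0 to 2 lower, and for P5 prefix 4 against prefix 3, 0 to 1 were higher and 1 to 3 lower. Members under 1 CPM rest on few counts, and their differences were not detectable at this depth unless large.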
